A study of Mus musculus with 10 samples.

Results

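KLF1 binding in K1-ER erythroblasts was described from every entry of the KLF1 peak list, with entries that share chromosome, start and end counted once. The list held 3800 peaks in 3623 distinct intervals, of 7853 distinct intervals in the KLF1 and KLF3 lists together. K1-ER cells are mouse erythroblasts that lack Klf1 and carry a KLF1-ER fusion, which stays inactive until 4-hydroxytamoxifen binds its estrogen receptor part. Clones A and C received 200 nM tamoxifen for 3 h, were fixed in 0.4% formaldehyde, and their chromatin was precipitated with a KLF1 antibody. The 3 replicates were pooled into 1 immunoprecipitate library beside 1 input library, so binding has no replicate check, and read depth is not given in the files. All intervals of shares given here are exact (Clopper-Pearson) 95% intervals that cover counting error only.

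The other libraries of the series served as comparison. J2E is an immortalised mouse erythroid line, and J2E-KLF3-ER is J2E with an inducible fusion of the repressor KLF3. Newly made RNA, labelled with 500 µM 4-thiouridine for 30 min, came from 3 J2E libraries (the last one given ethanol in place of tamoxifen) and 3 of tamoxifen-treated J2E-KLF3-ER cells (1 each of clones A, C and E). Tamoxifen was at 200 nM in the RNA libraries that received it. KLF3 binding came from 1 immunoprecipitate of J2E-KLF3-ER clone C with an estrogen receptor antibody, pooled from 3 replicates, beside 1 input. These cells also received 200 nM tamoxifen for 3 h and were fixed in 0.4% formaldehyde. No RNA of K1-ER cells was analysed here, so their erythroid identity was not checked. J2E carried RNA of the erythroid factors Gata1 (30.6 FPKM, fragments scaled to transcript length and library size), Tal1 (50.6 FPKM) and Klf1 (122 FPKM), of Epor (85.4 FPKM) and of Hba-a2 (133 FPKM), and little of the progenitor receptor gene Kit (0.0249 FPKM).

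KLF1, also called EKLF, is a zinc finger protein found mainly in red cell precursors. It binds CACCC boxes and the related GC-rich sites in promoters and enhancers, and it activates globin, heme, membrane skeleton and cell cycle genes during red cell maturation. KLF3 binds the same kind of site and recruits corepressors.

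The sequence under the strongest promoter peaks shows the kind of site involved. The peak coordinates are in mm9, whose sequence was not used here, so the promoter windows of RefSeq (GRCm38.p6, 250 bases before to 50 after a gene's start) were used through gene names, and each summit was placed by its listed distance to the start, which can be off where the 2 annotations differ in the start. Of 1357 genes with a KLF1 summit within 1 kb of their start, 1095 (80.7%) had such windows, and 589 of these had the summit inside the first window. The lines give the 9 highest of these genes that have 1 window in the table, a gene name and a sequence free to print, written 5′ to 3′ in the direction of the gene. Capitals mark every match to CCNCNCCC, the broad pattern of a KLF-type box, on either strand, so that a run rich in capital G is a match on the opposite strand, and adjoining matches run together.
Zfp28 (chr7:6383068-6383367, + strand): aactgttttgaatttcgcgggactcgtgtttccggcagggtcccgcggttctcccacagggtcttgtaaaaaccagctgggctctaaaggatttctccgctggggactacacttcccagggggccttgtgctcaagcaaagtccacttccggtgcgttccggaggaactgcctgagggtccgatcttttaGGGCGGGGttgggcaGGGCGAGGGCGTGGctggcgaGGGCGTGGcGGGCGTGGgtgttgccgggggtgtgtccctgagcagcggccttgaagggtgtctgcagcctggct
Myh9 (chr15:77842126-77842425, - strand): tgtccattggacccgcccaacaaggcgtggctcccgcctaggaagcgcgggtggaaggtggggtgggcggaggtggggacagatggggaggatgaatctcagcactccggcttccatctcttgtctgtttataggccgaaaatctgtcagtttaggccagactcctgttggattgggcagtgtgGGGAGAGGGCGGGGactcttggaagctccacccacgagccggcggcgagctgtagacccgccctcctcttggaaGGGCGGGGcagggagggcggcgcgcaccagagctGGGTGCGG
Sde2 (chr1:180850901-180851200, + strand): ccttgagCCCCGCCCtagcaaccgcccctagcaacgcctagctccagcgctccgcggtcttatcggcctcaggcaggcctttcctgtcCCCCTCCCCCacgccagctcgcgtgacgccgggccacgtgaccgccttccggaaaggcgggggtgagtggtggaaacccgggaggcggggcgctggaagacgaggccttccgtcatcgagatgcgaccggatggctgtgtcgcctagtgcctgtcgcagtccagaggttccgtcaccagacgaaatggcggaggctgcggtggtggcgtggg
Rpl31 (chr1:39367601-39367900, + strand): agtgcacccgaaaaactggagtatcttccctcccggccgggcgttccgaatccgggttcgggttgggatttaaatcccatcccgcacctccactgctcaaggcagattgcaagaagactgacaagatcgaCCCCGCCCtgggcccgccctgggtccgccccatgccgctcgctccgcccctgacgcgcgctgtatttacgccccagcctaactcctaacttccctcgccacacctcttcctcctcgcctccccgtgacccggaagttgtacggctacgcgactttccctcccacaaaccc
Ucp2 (chr7:100493108-100493407, + strand): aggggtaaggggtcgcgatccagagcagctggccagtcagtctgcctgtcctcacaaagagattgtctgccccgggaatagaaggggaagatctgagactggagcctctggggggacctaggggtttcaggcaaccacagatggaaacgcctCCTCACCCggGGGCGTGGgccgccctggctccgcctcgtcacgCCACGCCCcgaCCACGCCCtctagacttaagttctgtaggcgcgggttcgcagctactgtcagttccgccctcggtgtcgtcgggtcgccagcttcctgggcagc
Nbeal2 (chr9:110654112-110654411, - strand): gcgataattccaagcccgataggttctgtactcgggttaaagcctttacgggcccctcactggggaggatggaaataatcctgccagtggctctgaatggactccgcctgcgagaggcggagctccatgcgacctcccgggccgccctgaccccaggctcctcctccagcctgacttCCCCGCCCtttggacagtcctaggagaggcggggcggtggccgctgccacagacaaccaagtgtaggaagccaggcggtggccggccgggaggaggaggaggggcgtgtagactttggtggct
Gata1 (chrX:7967861-7968160, - strand): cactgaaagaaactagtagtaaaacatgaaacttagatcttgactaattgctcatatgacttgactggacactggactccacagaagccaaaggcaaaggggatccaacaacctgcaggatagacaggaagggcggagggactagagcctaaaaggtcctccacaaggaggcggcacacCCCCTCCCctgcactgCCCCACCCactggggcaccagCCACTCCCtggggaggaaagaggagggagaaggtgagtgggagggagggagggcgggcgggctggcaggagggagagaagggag
Smox (chr2:131491612-131491911, + strand): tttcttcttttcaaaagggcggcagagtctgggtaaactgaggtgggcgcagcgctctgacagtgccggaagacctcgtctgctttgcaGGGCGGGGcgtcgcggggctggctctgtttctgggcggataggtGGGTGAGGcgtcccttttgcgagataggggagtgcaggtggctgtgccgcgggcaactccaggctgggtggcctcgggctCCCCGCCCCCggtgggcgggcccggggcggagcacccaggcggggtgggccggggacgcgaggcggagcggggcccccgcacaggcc
Fah (chr7:84605893-84606192, - strand): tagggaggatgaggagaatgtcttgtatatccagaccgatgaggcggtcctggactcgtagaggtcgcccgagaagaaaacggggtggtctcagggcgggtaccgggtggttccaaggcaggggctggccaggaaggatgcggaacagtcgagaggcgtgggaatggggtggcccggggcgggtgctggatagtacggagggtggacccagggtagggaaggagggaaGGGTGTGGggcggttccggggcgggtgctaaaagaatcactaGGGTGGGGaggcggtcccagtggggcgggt

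All 9 windows held the broad box, from 1 match in Rpl31 and Nbeal2 to 5 in Zfp28. In Zfp28, a zinc finger gene, the summit lay 19 bp upstream of the start and 1 bp from the centre of the nearest match, and 3 of the 5 matches were the narrower form CCACGCCC. Ucp2, a mitochondrial carrier gene, also held 3 copies of CCACGCCC, and its summit, 63 bp upstream, was 12 bp from the nearest match. In Smox, the spermine oxidase gene, the summit 157 bp upstream fell on the centre of a match. In Gata1, the master erythroid factor gene, the summit 56 bp upstream was 5 bp from a match, and none of its 3 matches was CCACGCCC or CCCCGCCC. In Sde2 the summit 242 bp upstream was 3 bp from a match. In Fah, a tyrosine breakdown enzyme gene, it lay 16 bp downstream of the start and 8 bp from a match. The distance to the nearest match was longest in Myh9 (27 bp) and Rpl31 (28 bp).

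Over all genes with the summit inside the window, 535 of 589 windows (90.8%, 88.2 to 93.0) held CCNCNCCC. The share was 82.4% of 506 windows whose gene had a summit within 1 kb but outside the window, and 49.1% of all 27025 genes in the RefSeq table. CCACGCCC stood further apart: 27.7% (24.1 to 31.5) of windows with a summit held it, 8.50% (6.22 to 11.3) of those with the summit outside, and 5.43% of all genes. CCACACCC, the form of the adult beta-globin box, was in 8.49%, 3.75% and 3.57% of the same groups. CCCCGCCC, the form shared with SP1-type sites, was in 58.9%, 46.4% and 17.8%. GATAA, the core of GATA factor sites, was in 18.3% (15.3 to 21.7) of windows with a summit, 12.1% (9.35 to 15.2) of those with the summit outside and 25.8% of all genes. CANNTG, the E-box of TAL1-type factors, was in 63.0% (58.9 to 66.9), 60.1% and 72.1%. Genes at 1 FPKM or more in J2E without a KLF1 summit within 1 kb gave a closer reference, of 8075 windows. There CCNCNCCC was in 63.9%, CCACGCCC in 8.93%, CCACACCC in 3.47% and CCCCGCCC in 30.1%. GATAA was in 16.8% (16.0 to 17.7) and CANNTG in 63.3% (62.2 to 64.3) of them. For GATAA and CANNTG these intervals overlap those of windows with a summit. CCACACCC, CCACGCCC and CCCCGCCC are each contained in CCNCNCCC.

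Base composition moved with these shares: the median GC content was 64.3% in windows with a summit, 65.7% with the summit outside and 52.7% in all genes. Among windows of 60 to 70% GC, CCNCNCCC was in 94.5% (91.5 to 96.7) of 328 windows with a summit and in 78.4% (77.2 to 79.5) of 4912 windows of genes without a KLF1 summit within 1 kb. In the same band CCACGCCC was in 30.8% (25.8 to 36.1) and 11.2% (10.3 to 12.1). In windows of 50 to 60% GC it was in 24.1% (17.1 to 32.2) of 133 windows and in 4.76% of 8091. At like GC content the narrow box was thus more frequent under KLF1 summits than in other promoters, beyond counting error.

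Within the window, the broad box was denser around the summit than upstream of it. In 458 genes with a single window, a CCNCNCCC match was centred within 20 bp of the summit in 210 (45.9%, 41.2 to 50.5). A GATAA match was so placed in 7 (1.53%), but GATAA was rarer at every distance, at no more than 1.37 per 1000 positions. These shares therefore do not compare gathering at the summit, and the share expected from match density alone was not computed. The density of CCNCNCCC was 19.6 per 1000 positions between 10 and 30 bp downstream of the summit and 6.04 between 130 and 110 bp upstream of it, but it stayed between 12.5 and 15.9 further downstream, toward the start. CCACGCCC went from 2.72 per 1000 positions between 10 and 30 bp downstream to 0.155 at 130 to 110 bp upstream and 0.673 at 90 to 110 bp downstream, beyond which it was 1.63 and 1.44 in the last steps, up to 150 bp downstream.

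**Figure D1:**
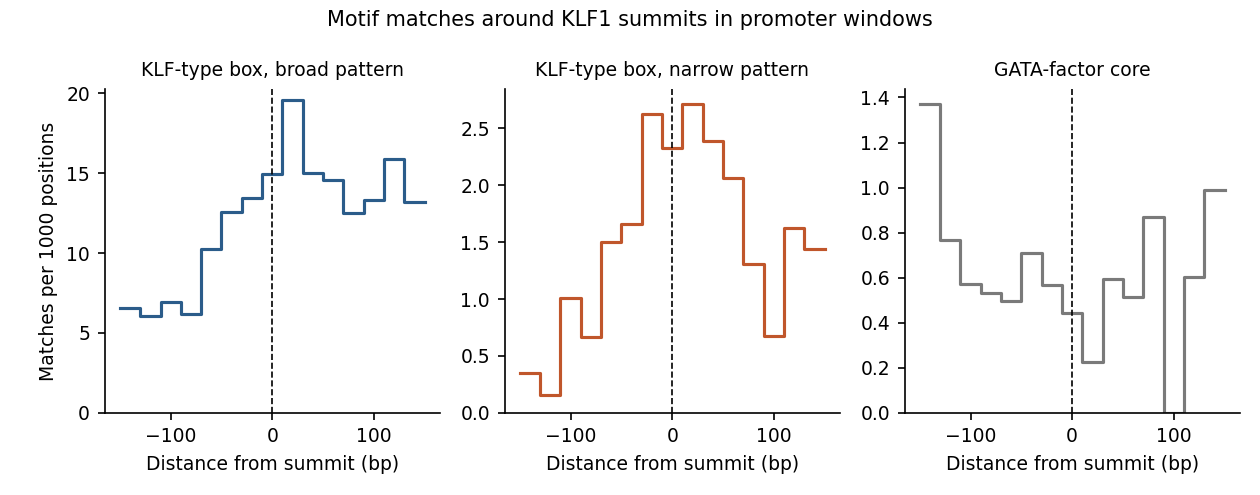
Matches per 1000 positions (vertical axes, each with its own scale) against the distance from the KLF1 summit in 20 bp steps, negative toward upstream, in 458 promoter windows; the broad pattern is CCNCNCCC, the narrow one CCACGCCC and the GATA core GATAA. The broad pattern is densest just downstream of the summit at 19.6 per 1000 positions, the narrow one is highest from 30 bp upstream to 50 bp downstream of it, and the GATA core shows no such rise.

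KLF1 summits sat just upstream of start sites. Of the 3623 intervals, 1447 (39.9%, 38.3 to 41.6) had their summit within 1 kb of the nearest start, and 966 of these (66.8%, 64.3 to 69.2) lay upstream of it. The median position was -67 bp, with quartiles at -194 and 103 bp. Between 1 and 100 bp upstream there were 388 summits, and between 1 and 100 bp downstream 113. Beyond 1 kb the balance turned, with 883 summits upstream and 1293 downstream of the nearest start. A further 948 intervals lay 1 to 10 kb away, 1118 lay 10 to 100 kb away and 110 lay beyond that.

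**Figure D2:**
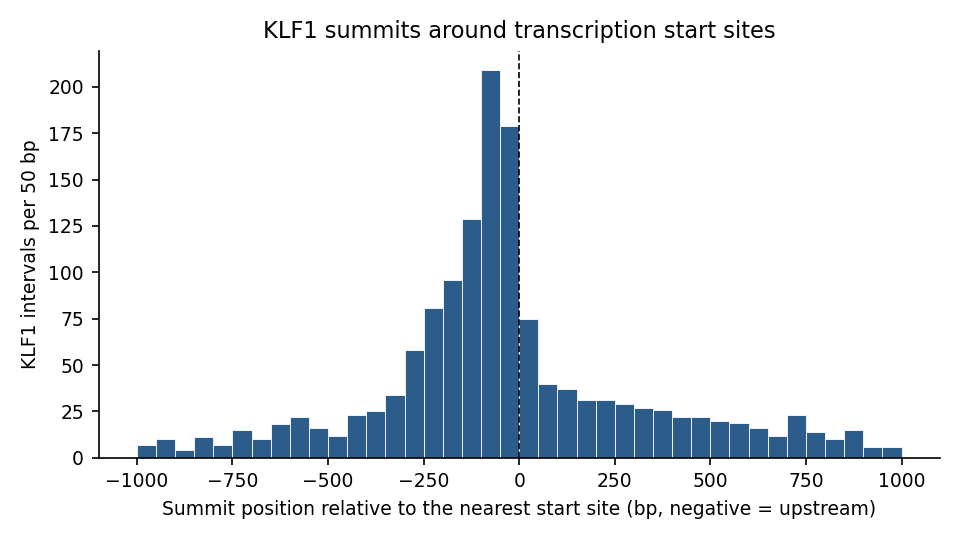
Number of KLF1 intervals (vertical axis) per 50 bp of summit position relative to the nearest start site (horizontal axis, negative upstream), for the 1447 intervals within 1 kb. The tallest bar, of 209 intervals, is 100 to 50 bp upstream, and counts drop sharply past the start, to 75 in the first 50 bp downstream.

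By the authors' annotation, 1362 intervals (37.6%) were in introns, 1119 (30.9%) in promoters, 861 (23.8%) distal to genes, 118 (3.26%) in UTRs, 108 (2.98%) intergenic and 55 (1.52%) in coding sequence. The peak enrichment, a fold value that the authors gave each peak, ran from 3.41 to 80.9 with a median of 9.82 and quartiles of 7.39 and 15.0. It was at least 20 in 520 intervals (14.4%) and at least 50 in 30 (0.828%). Promoter intervals had a median of 10.7, intronic ones 9.52, distal ones 9.48 and coding ones 8.79. The classes overlapped over nearly their whole range, and promoters were set apart mainly at the top: they made up 26.3% (23.4 to 29.3) of the lowest enrichment quartile, 38.5% (35.3 to 41.8) of the highest and 57 of the 100 highest intervals.

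**Figure D3:**
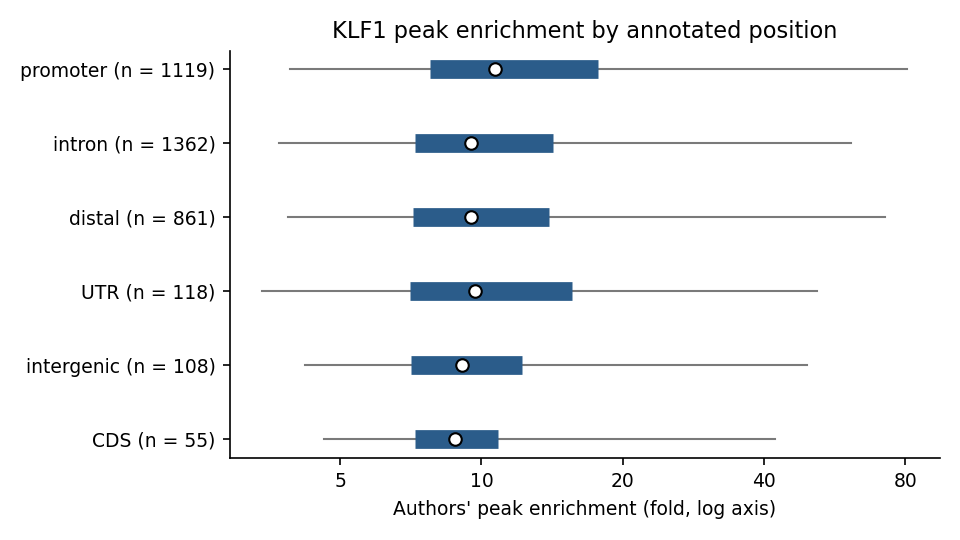
The authors' peak enrichment (horizontal log axis, fold) for the 6 annotation classes; white points are medians, thick bars the quartiles and thin lines the lowest to highest interval. The quartile bars of all classes overlap, with medians between 8.79 and 10.7, and the promoter class reaches furthest, to 80.9.

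Most intervals were single narrow peaks. One summit was listed in 3458 intervals, with a median width of 290 bp, whereas 153 held 2 summits (median width 669 bp) and 12 held 3 (1045.5 bp). Summits in 1 interval were a median of 342 bp apart (132 to 702 bp). Median enrichment was 9.66, 14.7 and 20.3 in the 3 groups. Of the 12 intervals with 3 summits, 11 lay within 1 kb of a start site, against 38.9% of those with 1 summit. Zbtb7a, which encodes the globin repressor LRF, held one of them in its promoter (enrichment 19.3).

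The 20 highest intervals were a mixed set. Of these, 12 were promoter intervals and 14 lay within 1 kb of a start. The strongest were at Arrb1 (beta-arrestin 1, enrichment 80.9, summit 394 bp upstream), Snx22 (a sorting nexin, 78.2, 115 bp upstream) and Zfp28 (74.9, 19 bp upstream). Next to blood cell genes, Pim1 (a serine/threonine kinase induced by cytokines) had 69.7 at 600 bp upstream, and Nfe2 (the p45 subunit of NF-E2) had 54.3 at 3071 bp upstream. Cell structure and metabolism were represented by Myh9 (non-muscle myosin, 67.9), Ucp2 (53.6) and Azin1 (an antizyme inhibitor, 57.0 at 48678 bp downstream of the nearest start). Wdr26, a ubiquitin ligase subunit used in late red cell maturation, had a distal interval of 62.1 with 2 summits, 44914 bp upstream. Sema4b (61.2, intron) was the 1 interval of the 20 that did not overlap a KLF3 interval.

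The highest intervals of the remaining classes were at other kinds of genes. In UTRs they were at Snhg3, a snoRNA host gene (51.9), and at Cyfip1, an actin regulator (44.0). In coding sequence they were near Cd52 (42.1) and Sipa1 (33.5), a Rap1 GTPase-activating protein. The highest intergenic intervals had D15Ertd621e (49.4) and Fam92b (41.5) as nearest genes, at 179594 and 99058 bp.

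The deposited list also marks genes changed in the authors' comparison of K1 and K1-ER cells, as up, down or neither. The header does not say which way up runs. In the authors' deposited table, 386 of the 2765 nearest genes (14%) were marked up and 16 (0.579%) down. No tested background of genes without a KLF1 peak comes with these marks, so these shares describe KLF1-bound genes against each other. The list names 557 up genes and 132 down genes wherever they lie. By the marks of the authors' deposited table, 387 of the up genes (69.5%, 65.5 to 73.3) and 16 of the down genes (12.1%, 7.09 to 18.9) were the gene nearest to a KLF1 peak. A KLF1 summit lay within 1 kb for 273 up genes (49.0%, 44.8 to 53.2) and for 5 down genes (3.79%, 1.24 to 8.62) of the authors' deposited table. The median distance from a gene to the closest KLF1 summit was 1150 bp for up genes and 104444 bp for down genes. A gene is named in these columns only when it is the closest of its kind to some peak, so both totals can be short of the full lists. Genes left out in this way are never the nearest gene of a peak. The shares can therefore be too high and the median distances too short, which the exact intervals do not cover. The 5 down genes, named after their values were seen, were Mapre2, 1700026L06Rik, Pgd, Secisbp2 and Zswim3.

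Genes with more KLF1 intervals were marked up more often. In the authors' deposited table, the share up was 10.1% (8.86 to 11.5) of 2137 genes with 1 interval, 22.6% (18.9 to 26.6) of 474 with 2, 34.2% (25.5 to 43.8) of 111 with 3, 57.1% (37.2 to 75.5) of 28 with 4, and 9 of 15 (interval 32.3 to 83.7%) with 5 or more. For genes with 3 or more intervals together it was 40.9% (33.1 to 49.1), and 62.9% of 62 genes when only summits within 10 kb were assigned. Peak height rose with the number of intervals, from a median highest enrichment of 9.67 with 1 interval to 26.2 with 4. Among genes whose highest interval was below the median of 10.5, the share up was 6.37%, 16.3% and 38.1% (18.1 to 61.6, 21 genes) with 1, 2 and 3 or more intervals. Above that median it was 14.8%, 25.4% and 41.4%. The share thus went up with the number of intervals in both height groups.

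By enrichment quartile of single intervals, the nearest gene was marked up in 14.2%, 14.2%, 15.9% and 28.5% (25.6 to 31.5) of intervals in the authors' deposited table, so the difference was at the top quartile alone. Restricted to intervals within 1 kb of a start, the lowest and highest quartile groups gave 14.2% and 30.4%. Intervals 1 to 10 kb from a start had an up gene in 24.2% of cases (lower bound 21.5), those within 1 kb in 20.1% (18.1 to 22.3) and those at 10 to 100 kb in 11.5% (9.72 to 13.6).

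**Figure D4:**
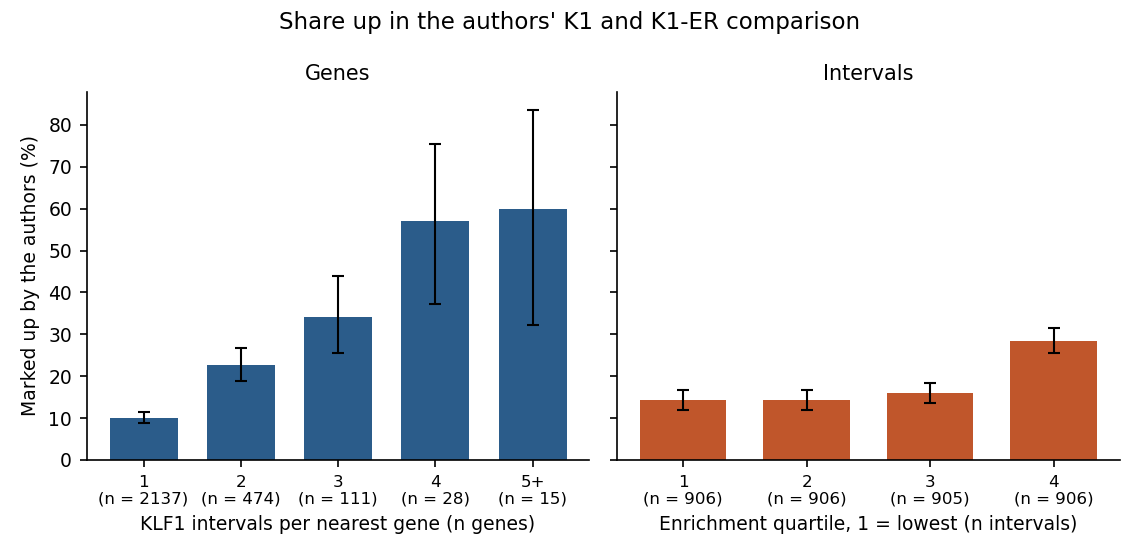
Share marked up in the authors' K1 and K1-ER comparison (percent, exact 95% intervals): left, nearest genes by number of KLF1 intervals; right, intervals by enrichment quartile. The share climbs from 10.1% of genes with 1 interval to 57.1% of genes with 4, whereas the first 3 enrichment quartile groups are alike (14.2 to 15.9%) and the highest reaches 28.5%.

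The genes with most intervals included several transcriptional regulators. Gse1, which encodes a chromatin corepressor subunit, had 13 intervals, up to 28.9 in enrichment, and was not marked up. The gene 8430427H17Rik had 9 and Irf2bpl, a transcriptional regulator, had 7, of which the highest was 28.2. Zfpm1, which encodes the GATA1 partner FOG1, had 6 (5 of them intronic, up to 24.5), as had Zfp217, Plec and the antiproliferative gene Btg2. Pim1, the mechanosensitive channel gene Piezo1, Lyl1 (a TAL1 relative), Sertad2, Bahd1, Klf10, Eef2k and C77080 had 5 each.

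Intervals also lay in clusters along the chromosome. With neighbours joined when their midpoints were within 10 kb, 102 clusters of 3 or more held 341 intervals, with a median span of 8264 bp, and 348 pairs and 2586 single intervals remained. The number of clusters followed the joining distance, with 59 at 5 kb and 165 at 20 kb. A promoter interval was part of 62 of the 102 clusters, and 68 had only 1 nearest gene. The largest, of 7 intervals, ran over 23212 bp at Nr1d1 and Thra (chromosome 11, 98612242 to 98635453, mm9), a convergent pair of nuclear receptor genes; 6 of the intervals were intronic. The next, of 6 intervals, lay at Hook2, Junb and Prdx2 on chromosome 8 (87494902 to 87513638), where Junb encodes an AP-1 subunit and Prdx2 a major red cell peroxidase. Clusters of 5 lay at Rpl29, Acy1, Abhd14a and Pcbp4 on chromosome 9 (106335509 to 106358975), at Plec on chromosome 15 (76020191 to 76038127) and at Bahd1 on chromosome 2 (118713691 to 118728685). The highest cluster of 4 was near Zdhhc19 on chromosome 16 (32509074 to 32516770). It peaked at 50.7, and its nearest start was 12841 bp away. The nearest gene was marked up in the authors' deposited table for at least 1 interval in 59 of the 102 clusters. A cluster has several intervals, so this count is not comparable with the 18.2% of all intervals that had an up gene. Per interval, the share up in the authors' deposited table was 51.9% (46.5 to 57.3) in clusters of 3 or more, 26.9% in pairs and 11.4% among single intervals. Intervals of 1 cluster often share their nearest gene, which the exact interval does not cover.

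Among the gene lists, the largest shares of genes with a KLF1 interval were those of heme synthesis and of the red cell membrane, though the counts are small and the lists were not tested against each other. For reference, 11.9% of the 23309 genes in the RNA table, and 18.4% of those at 1 FPKM or more in J2E, were the nearest gene of an interval. Of all 2765 nearest genes, 386 (14%) were marked up in the authors' deposited table, the share beside which the up counts of the lists stand. These counts were not adjusted for the number of intervals per gene, with which the up share rose. Of 13 heme synthesis genes, all at 1 FPKM or more, 9 had an interval, and 6 of these were marked up in the authors' deposited table. The mitochondrial glycine carrier gene Slc25a38 had 4 intronic intervals (up to 28.5), Alad had 1 at 28.3 in an intron, Tspo had 1 at 39.1 whose summit was 32 bp upstream, and Abcb10, a mitochondrial transporter gene, had 3. Alas2, the erythroid first enzyme, had its interval 2379 bp downstream of the start (14.7). Urod, Cpox and Ppox had an interval without the mark, and Alas1, Uros, Fech and Abcb6 had none.

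Of 35 red cell membrane and cytoskeleton genes, 23 had an interval, 49 intervals in all, and 9 of the 23 were marked up in the authors' deposited table. The dematin gene Epb4.9 had the highest at 46.9, 49 bp upstream of the start. Kcnn4, the Gardos channel gene, had 4 intervals (up to 30.5), and Piezo1 had 5 without the mark. The skeleton genes Ank1 (3 intervals, up to 30.5) and Add1 (28.9, 64 bp upstream) were bound, and so was Add2 (17.3, 49 bp upstream), the beta-adducin gene. No interval was assigned to Epb4.2 or Rhag.

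Of 36 erythroid transcription factor genes, 18 had an interval, 43 in all, and 7 were marked up in the authors' deposited table. Nfe2 (54.3), Gata1 (50.5) and Ldb1 (48.7, 65 bp upstream), which encodes a LIM domain-binding partner in GATA1 and TAL1 complexes, were highest, followed by Nfe2l1 (34.4) and E2f2 (33.8, in an intron). Gata1 had 3 intervals in 3906 bp, at 56, 637 and 3565 bp upstream, with enrichments of 50.5, 8.66 and 13.9, and was not marked. Klf1 itself, Gata2, Lmo2, Myb, Myc and Bcl11a had none. Runx1 was bound in an intron (7.92) and was at 0.0748 FPKM in J2E.

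In the KLF and SP family 8 of 26 genes had an interval, 22 in all. These were Klf9 (3 intervals, up to 23.6), Klf10 (5, up to 15.6), Klf11 (3, up to 23.9), Klf13 (4, up to 25.4), Klf16 (1, 22.2), Sp1, Sp3 and Sp4. All 5 of these KLF genes, which encode SIN3-binding repressors, were marked up in the authors' deposited table, and the SP genes were not. The activating members Klf2, Klf5, Klf6 and Klf7, as well as Klf3, had no interval.

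In the list for cell cycle exit and G1/S, 12 of 34 genes (35.3%, 19.7 to 53.5) had an interval, and E2f2, the cyclin D gene Ccnd3 (4 intronic intervals, up to 33.5) and the p21 gene Cdkn1a (8.11) were marked up in the authors' deposited table. None of the replication genes Mcm2 to Mcm7 and Pcna had one, although they ran from 33.8 FPKM (Mcm3) to 148 FPKM (Pcna) in J2E. In erythropoietin and KIT signalling, 13 of 38 genes (34.2%, 19.6 to 51.4) had an interval. Epor (24.2, in an intron, 974 bp downstream of the start), Pim1, Sh2b3 (17.5) and Irs2 (17.7) were marked up in the authors' deposited table, and Arrb1, with the highest peak of all, was not. Glycolysis and red cell enzymes gave 12 of 30 genes, highest at Pkm (38.1, 257 bp upstream), with the red cell pyruvate kinase gene Pklr (22.3) and Prdx2 marked up in the authors' deposited table.

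Iron uptake and storage gave 6 of 16 genes, where the ferrireductase gene Steap3 (10.4, 27 bp upstream) and Glrx5 (11.8) were marked up in the authors' deposited table, and Tfrc had no interval. Autophagy gave 7 of 28, with Atg4d and Tfeb marked, and the BCL2 family 2 of 16 (Mcl1 and Bbc3). The list of globin-assisting and ubiquitin pathway genes gave 2 of 12. Among 9 globin genes the intervals were assigned to Hbb-y, the embryonic beta-type gene (20.7 and 19.9, at 6058 and 7957 bp upstream), and Hba-a1 (32.9 and 20.6, at 74 and 76 bp upstream). The Hbb-y intervals were distal and assigned by the nearest start alone, so which beta-type gene they serve cannot be told. The 2 Hba-a1 intervals lay beside separate starts on chromosome 11, beginning at 32183404 and 32196224 (mm9). The alpha-globin genes are near-identical copies, so the naming of each copy and their FPKM are uncertain. Hba-a2 was counted as having no interval. Of the markers of other blood cells, 2 of 16 myeloid (12.5%, Prtn3 and Cebpe), 2 of 12 megakaryocyte (16.7%, Gp9 and Itga2b), 0 of 10 mast cell and 1 of 16 lymphoid genes (Lck) had an interval, beside 11.9% of all genes. No gene of any list was marked down, but only 0.579% of all nearest genes were, too few for these lists to differ from that share.

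KLF1-bound genes were mostly active in J2E, although these are not the cells of the immunoprecipitation. Of the 2765 nearest genes, 2105 (76.1%, 74.5 to 77.7) were at 1 FPKM or more, with a median of 6.97 FPKM, against 45.6% and 0.507 FPKM for the 20544 genes without an interval. The share was 85.9% for genes with a summit within 1 kb and 66.8% for genes bound only from further away. By the height of the highest interval it changed little, from 74.1% (70.7 to 77.4) in the lowest quartile of genes to 78.1% (74.9 to 81.2) in the highest. Seen the other way, the share of genes with an interval was 3.65% at 0 FPKM, 8.16% at 0.1 to 1 FPKM, 16.0% at 1 to 5 FPKM and 20.7% (18.1 to 23.4) above 50 FPKM. Binding thus separated silent from active genes more than moderate from high ones.

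**Figure D5:**
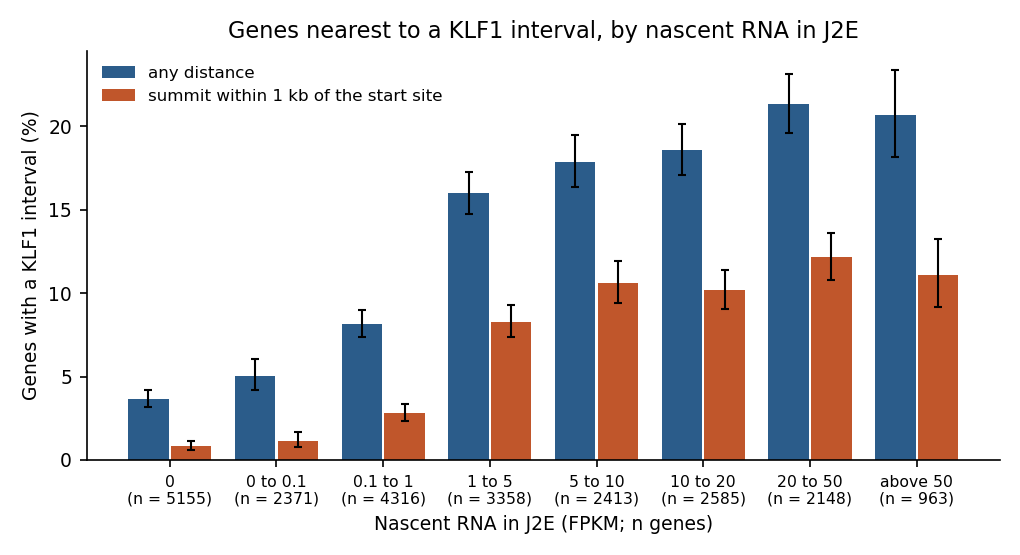
Share of genes with a KLF1 interval (percent, exact 95% intervals) by nascent RNA level in J2E (FPKM classes), for intervals at any distance and for summits within 1 kb of the start. The share at any distance goes from 3.65% of genes at 0 FPKM to 16.0% at 1 to 5 FPKM and varies between 17.9% and 21.3% above that.

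Leaving small RNAs out, the bound genes of highest level were mostly general ones. Eef1a1, the translation elongation factor gene, was at 1236 FPKM with a promoter interval of 11.8, Add2 at 984 FPKM, and the beta-actin gene Actb at 453 FPKM with an interval of 13.6, 766 bp from the start. Ppia (331 FPKM), Nop56 (270 FPKM), Hnrnpf, Mki67, Rps19 and Ccnl1 followed. At the other end, 308 bound genes were below 0.1 FPKM. Those with the highest promoter intervals were Slc9b2 (39.1), the complement regulator gene Cd55 (22.0), Lefty1 (20.3), P2ry2 (19.7), Efna1 (19.0) and Cryba4 (18.8). Of these 6, Lefty1 was marked up in the authors' deposited table.

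With KLF3-ER in J2E, KLF1-bound genes were called lower more often than all tested genes together. In the authors' deposited table, 75 of 1836 tested KLF1-bound genes (4.08%, 3.23 to 5.09) were lower at a q-value below 0.05, where all 9619 tested genes gave 1.9%. At a q-value below 0.01 the share of bound genes in the authors' deposited table was 2.61%. Higher were 10 (0.545%, 0.261 to 0.999), against 0.821% of all tested genes. Without a KLF1 interval, 108 of 7783 genes (1.39%) were lower in the authors' deposited table. Among bound genes, those also marked up between K1 and K1-ER were lower in 43 of 290 cases (14.8%, 10.9 to 19.4) and those with no mark in 32 of 1535 (2.08%, 1.43 to 2.93). By distance, genes with a summit within 1 kb gave 53 of 1029 (5.15%). By number, 1 interval gave 3.50% and 2 or more gave 5.98% (3.94 to 8.64). The rate was thus near the background for bound genes without the mark. These q-values cover only the spread between libraries. That spread includes clone differences among the J2E-KLF3-ER libraries and ethanol in place of tamoxifen in 1 J2E library. Nothing in the labels tells if the 2 tamoxifen-treated J2E libraries were separate cultures. In bulk RNA fewer cells making a transcript and less transcript per cell cannot be told apart.

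The lower genes with the highest KLF1 intervals included Zfp28 and Ucp2, whose promoter windows each held 3 CCACGCCC boxes, and Smox, whose window held none. The share of lower genes with this box was not computed. In the authors' deposited table Zfp28 had 6.19 FPKM in J2E and 3.09 FPKM with KLF3-ER (q 0.00707) and Ucp2 had 41.4 and 25.3 FPKM (log2 fold change -0.71, q 0.00408). Ankrd10, with an interval of 54.3, was at 133 FPKM in J2E and at 88.1 FPKM with KLF3-ER in the authors' deposited table (log2 fold change -0.60, q 0.0168). In the same authors' deposited table Midn, the midnolin gene with 4 intervals up to 49.1, changed from 31.8 to 16.2 FPKM (-0.97, q 0.00408). Impdh1, the guanine synthesis enzyme gene, also had 4 intervals, and the authors' deposited table puts it at 17.5 and 10.3 FPKM (-0.76, q 0.0148) and Smox at 21.0 and 12.7 FPKM (-0.73, q 0.0451). Of the higher genes, Gas5, a snoRNA host gene with an interval of 35.4, had 83.6 FPKM in J2E and 121 FPKM with KLF3-ER by the authors' deposited table (log2 fold change 0.53, q 0.0383), and Rps23, a ribosomal protein gene (29.4), had 62.3 and 124 FPKM (0.99, q 0.00408). Scd1, Zfp62, Gapdh and Ptma were the next higher genes by KLF1 interval.

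KLF3-ER sites met KLF1 sites most often in promoters, and within classes more often where KLF1 enrichment was high. Of the 3623 KLF1 intervals, 1374 (37.9%, 36.3 to 39.5) overlapped a KLF3 interval, with the 2 summits a median of 24 bp apart and within 50 bp in 75.8%. By class the share was 72.1% (69.4 to 74.7) in promoters, 21.4% (19.3 to 23.7) in introns and 21.0% (18.3 to 23.9) at distal intervals. By KLF1 enrichment quartile the share was 28.0%, 29.5%, 37.2% and 57.0% (53.7 to 60.2). In promoters it went from 65.5% (59.1 to 71.6) in the lowest quartile to 79.9% (75.4 to 84.0) in the highest. In introns it went from 13.1% (9.81 to 17.1) to 38.9% (33.3 to 44.6), and at distal intervals from 12.7% (8.65 to 17.7) to 44.3% (37.1 to 51.6). The share was therefore higher in the top quartile in each of these 3 classes. Cell line, antibody and factor differ together between the 2 lists and cannot be told apart.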

How the data were processed

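Per the file headers, the authors' deposited KLF1 list gives each peak an enrichment ratio (fold), a summit, a class, the nearest start site and marks from a comparison of K1 and K1-ER. The RNA table deposited by the authors gives FPKM as 1 pooled value per group, a log2 fold change (J2E-KLF3-ER over J2E), a p-value and a q-value. The submitters' processing notes name mm9 as build and TopHat2 2.0.10, MACS2 and MACS 1.4.2 as tools, without saying what each did. The direction of the signed distance was found from the data: summit plus distance met the 5′ end of the gene's locus within 2 bp for 87.8% of peaks.

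Intervals carry their highest peak. Quartile groups divide the intervals by enrichment. In 13 gene entries a date was read back as a gene name. KLF3 overlap needs 1 bp. Lower and higher calls use the authors' q-value below 0.05. No test was run on peaks, which share 1 library, and the design's fallback for pooled values was used. Unused per-sample columns: 0. In all, 17682 of 23309 RNA table genes matched a RefSeq promoter.

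Members and gene lists were chosen with earlier results of these data known. Named genes are the 20 highest intervals, the 5 highest per class, up to 6 per list, the 10 genes with most intervals (with ties), the 6 largest clusters, the 10 bound genes of highest FPKM, 6 silent ones with high promoter intervals, and 6 called genes each way; list members without an interval were named besides. A few genes that these rules cover are not reported here. Overlap, clustering, strand and motif steps were tested on simulated data. Python 3.11.15, pandas 2.3.3, NumPy 2.4.6, SciPy 1.17.1 and matplotlib 3.10.9 were used.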

Additional observations from a re-analysis of the deposited data

How the results depend on the processing

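Counting every listed peak kept the 3 class shares, the 3 class medians and the 1 kb share within their intervals and gave 721 genes with 2 or more peaks. At an enrichment of at least 10, promoter, intron and distal shares were 34.8%, 35.9% and 22.3%, and 44.5% of intervals lay within 1 kb of a start; within 2 kb it was 45.7%. Within 10 kb, 308 genes had 2 or more intervals, where 628 had them at any distance. Clusters of 3 or more numbered 59 with a gap of 5 kb and 165 with 20 kb. The share of bound genes at the FPKM threshold was 88.9% for 0.1 FPKM, 56.7% for 5 FPKM, 85.9% with summits within 1 kb and 99.9% of tested genes. Bound genes below 1 FPKM were almost never tested, so the last share follows from the choice of tested genes. Lower calls were 5.15% within 1 kb and 2.61% at a q-value below 0.01. KLF3 overlap was 35.0% when 50% of the KLF1 interval had to be covered and 35.9% with KLF3 enrichment of at least 5. Chosen after seeing the data, assignment within 10 kb gave up shares of 12.9% with 1 interval and 62.9% with 3 or more, and any RefSeq window of a gene gave CCNCNCCC in 90.0%, against 86.9% for the first window. No paired analysis was possible because the FPKM values are pooled, 1 per group; for the same reason no replicate was left out. The pseudocount alternative was not run, as no log values were made from FPKM. Depth is unknown, so sites missing from the list cannot be called unbound.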

Other observations

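KLF1 intervals were unevenly spread over chromosomes relative to active genes. Per 100 genes at 1 FPKM or more in J2E there were 16.3 intervals on chromosome X (58 intervals), 25.3 on chromosome 10, against 40.6 on chromosome 4 and 48.0 on chromosome 15 (206 intervals). The J2E level stands in for K1-ER here, and the copy number of the chromosomes in either line was not measured.

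Motif shares were also split by the up mark, with no test. Among promoter windows with a KLF1 summit inside, CCACGCCC was in 18.3% (11.7 to 26.5) of 115 windows whose gene was marked up in the authors' deposited table and in 30.0% (25.9 to 34.3) of 474 others, intervals that overlap, and with any window of the gene the shares were 23.5% and 31.9%. CCCCGCCC was in 64.3% (54.9 to 73.1) and 57.6% (53.0 to 62.1). By height, CCACGCCC was in 24.6% (18.7 to 31.3) of windows in the highest enrichment quartile and 26.4% (18.4 to 35.6) in the lowest.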
